A study of Arabidopsis thaliana with 44 samples.

Results

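A set of 129 genes of Arabidopsis thaliana, of 13355 genes that could be measured singly, was lower in irradiated wild-type seedlings 1.5 h after both gamma rays and HZE, with a deeper change in wild type (WT) than in the ATM mutant atm-1. The members were chosen from group means: in WT the level at 1.5 h lay below the unirradiated level of day 1 after each radiation, and each change was at least 0.7 log2 lower in WT than in atm-1. The same values were met by 135 genes, of which 6 were left out by name because the rule omits their families (XTH19, EXPA7, EXPA8, EXPA18, CYP71B6 and UGT71C1). The values at 1.5 h and on day 1 are therefore given as a description, and only arrays the choice did not use were tested.

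The arrays hold RNA of whole seedlings that were 5 days old at irradiation, in 22 groups of 2 arrays each. WT and atm-1 received 100 Gy of gamma rays over 15 min or 30 Gy of HZE, accelerated iron nuclei, over about 12 min. WT was sampled 1.5, 3, 6, 12 and 24 h after either radiation and atm-1 at 1.5, 6, 12 and 24 h, and unirradiated seedlings of both genotypes were taken on day 1 at 10:45 am and on day 2 at 9:15 am. Per the labels, each RNA came from about 30 to 40 pooled plants, and nothing says that the 2 arrays of a group came from separate cultures, so p-values measure the spread between these samples only. Seedlings were 6 days old on day 2 and at 24 h. The mutant is labelled atm-1 with no description of the allele, and ATM itself has no probe set with a single gene here, so ATM gives no check of the genotype. The samples of 1.5, 3 and 24 h were taken at 2:39 pm, at 4:09 pm and at 1:09 pm after HZE, and at 10:10 am, at 11:40 am and at 8:40 am after gamma rays, so radiation and clock time cannot be told apart. Both genotypes share each clock time. In bulk RNA, fewer cells of a type and less RNA per cell cannot be told apart.

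ATM is a protein kinase that is activated at breaks through both DNA strands, the lesions that gamma rays and dense iron tracks have in common. In Arabidopsis it acts through the transcription factor SOG1, and it is best known for the early rise of DNA repair genes and for the fall of genes that peak in mitosis. Many stresses also lower genes of growth and cell walls in plants.

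In the 129 genes the unirradiated seedlings of day 1 differed between the genotypes, and this bears on every value the choice used. The rule subtracts these controls, so it favours genes that were high in WT and low in atm-1 on day 1. A smaller difference on day 2, which the rule did not use, can follow from such a choice as well. How much of the difference came from the choice was not tested. Each gene was centred on its mean over the 44 arrays, and the median of the 129 centred levels was taken on each array. It was 0.55 and 0.42 log2 in unirradiated WT of day 1 and -0.19 and -0.37 in unirradiated atm-1 of day 1. On day 2 the medians were 0.21 and 0.41 in WT and 0.17 and 0.20 in atm-1, so the genotypes lay much closer together. In atm-1 minus WT, 121 of the 129 genes were below 0 on day 1 with a median of -0.71, and 86 were below 0 on day 2 with a median of -0.14. The medians of all genes were -0.02 on day 1 and 0.01 on day 2.

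The median level after irradiation was lowest in WT 1.5 h after HZE, at -0.74 and -0.63 log2, and atm-1 stood at -0.43 and -0.54. After gamma rays the 1.5 h medians were -0.07 and -0.43 in WT and 0.19 and 0.29 in atm-1. Both WT arrays thus lay below both atm-1 arrays after each radiation, with no control in the comparison. The rule used these arrays and favours genes with WT below atm-1 on them. This order and the counts that follow are therefore descriptions too. WT minus atm-1 at 1.5 h had a median of -0.52 after gamma rays, where 124 of 129 genes were below 0, and of -0.21 after HZE, where 105 were.

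**Figure D1:**
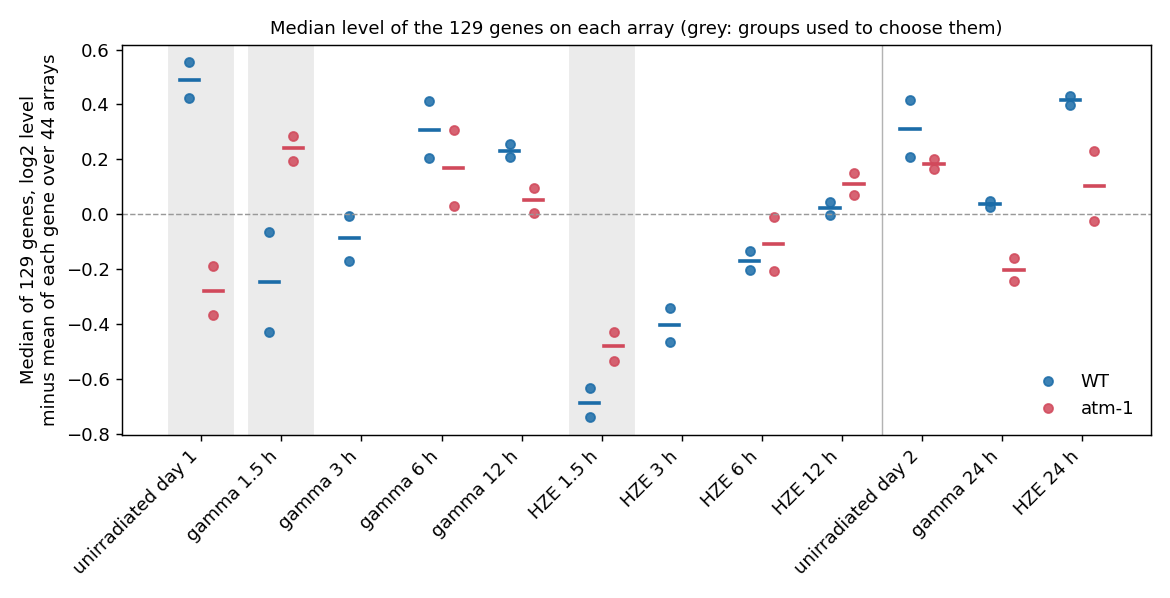
Median of the 129 genes on each array (vertical axis, log2 level minus each gene's mean over the 44 arrays) by group (horizontal axis), with WT in blue, atm-1 in red, bars for group means and grey bands over the groups used for the choice. The unirradiated day 1 arrays of atm-1, at -0.19 and -0.37, lie well below those of WT at 0.55 and 0.42, and the day 2 arrays of both genotypes lie between 0.17 and 0.41.

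With day 1 controls, as the rule has it, the WT change at 1.5 h had a median of -0.80 log2 after gamma rays, from -1.98 to -0.04, and of -1.22 after HZE, from -3.94 to -0.05. In atm-1 the change after gamma rays had a median of 0.39, and 112 of the 129 genes were above their control. After HZE the atm-1 median was -0.25 and 88 genes were below the control, 25 of them by 1 log2 or more. The most frequent pattern, in 77 genes, was a level above the control in atm-1 after gamma rays and below it after HZE. A further 35 genes were above the control in atm-1 after both radiations, 11 were below after both, and 6 were below after gamma rays alone.

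The dependence on genotype (the WT change less that of atm-1) had a median of -1.19 log2 for gamma rays and of -0.89 for HZE with day 1 controls. With day 2 controls in their place the medians were -0.65 and -0.37. Of the 129 genes, 122 were still below 0 for gamma rays and 113 for HZE, but 61 and 24 reached the limit of 0.7. Against the day 2 controls WT itself was lower for 110 genes after gamma rays and for 119 after HZE. The whole rule with day 2 controls was met by 20 of the 129 genes. The name "lowered through ATM" therefore holds as stated only with the day 1 controls, and the genes are described below as those with the lower early change in WT.

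The 20 genes that met the rule with either day's controls were AT5G38910, AT3G55790, AT1G26390, AT4G26010, AT2G41380, AT1G30870, AT3G18560, AT4G16260, AT3G45160, AT5G04120, AT3G25790, AT1G68620, AT2G41480, OSM34, AT5G44680, AT3G52360, ChiC, AT3G62040, AT5G62280 and AT3G13610. They were picked out after their values were seen. AT2G41480 is listed as peroxidase 25, of the class of secreted peroxidases that act on cell walls. OSM34 is an osmotin-like protein and ChiC a chitinase, both of families made in defence, and AT3G13610 is F6'H1, which hydroxylates feruloyl-CoA on the way to the coumarin scopoletin. The gene table used here gives the other 16 no name.

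At the limit, the members just inside it were AT3G16800, EULS3 and AT1G79520, whose weaker dependence was -0.7011, -0.7046 and -0.7047 log2. Just outside lay AT1G47480, AT3G25930 and AT3G54040 at -0.6974, -0.6966 and -0.6952.

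The largest mean dependence at 1.5 h with day 1 controls, -2.16 log2, was that of AT5G38910. Its log2 level was 8.57 and 8.83 in unirradiated WT of day 1, 7.95 and 6.48 in WT 1.5 h after gamma rays and 6.12 and 5.81 in WT 1.5 h after HZE. In atm-1 it was 7.41 and 7.31 without radiation, 7.94 and 8.41 after gamma rays and 6.55 and 6.75 after HZE. The WT arrays fell below their controls after both radiations, whereas in atm-1 the gamma arrays stood above theirs and the HZE arrays below. The 2 WT gamma arrays differed by more than 1 log2, and the higher of them overlapped the atm-1 gamma arrays.

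AT3G55790 went from 6.40 and 6.29 in WT of day 1 to 5.83 and 4.09 after gamma rays and to 4.62 and 4.97 after HZE. In atm-1 it was 4.44 and 4.66 without radiation, 5.05 and 5.85 after gamma rays and 4.84 and 5.21 after HZE. All 4 irradiated atm-1 arrays lay within the span of the 4 irradiated WT arrays or just above it, and it was the controls that lay far apart. AT1G26390 also had its controls apart, at 7.17 and 7.37 in WT and at 6.02 and 6.04 in atm-1. Its gamma arrays were at 7.31 and 5.50 in WT and at 7.02 and 7.89 in atm-1, and its HZE arrays at 5.84 and 5.66 in WT and at 6.72 and 6.23 in atm-1. The genotypes overlapped after gamma rays, and after HZE both WT arrays lay below both atm-1 arrays.

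AT3G18560 differed from these in that the day 1 controls agreed, at 8.25 and 7.92 in WT and at 8.16 and 8.07 in atm-1. Its gamma arrays were at 6.49 and 5.73 in WT and at 7.60 and 7.76 in atm-1. Its HZE arrays were at 7.17 and 7.25 in WT and at 8.88 and 8.66 in atm-1. Here WT lay below atm-1 on every 1.5 h array of both radiations, and with day 2 controls the dependence was -1.37 for gamma rays and -1.36 for HZE.

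BCAT4, an aminotransferase that opens the chain elongation of methionine in glucosinolate synthesis, had the deepest WT change after HZE at -3.94 log2. It stood at 9.12 and 9.13 in WT of day 1 and at 5.30 and 5.07 after HZE. In atm-1 its controls were 7.35 and 8.76 and its HZE arrays 5.66 and 5.06, so the gene was low in both genotypes after HZE and the genotypes overlapped. Its gamma arrays were 7.12 and 7.38 in WT and 8.66 and 8.16 in atm-1. The other genes among the 12 with the largest mean dependence were AT1G14960, AT4G26010, AT2G41380, AT1G30870, AT2G43590, AT4G11190 and AT4G16260, whose mean dependence ran from -2.05 for AT1G14960 to -1.50 for AT4G16260.

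**Figure D2:**
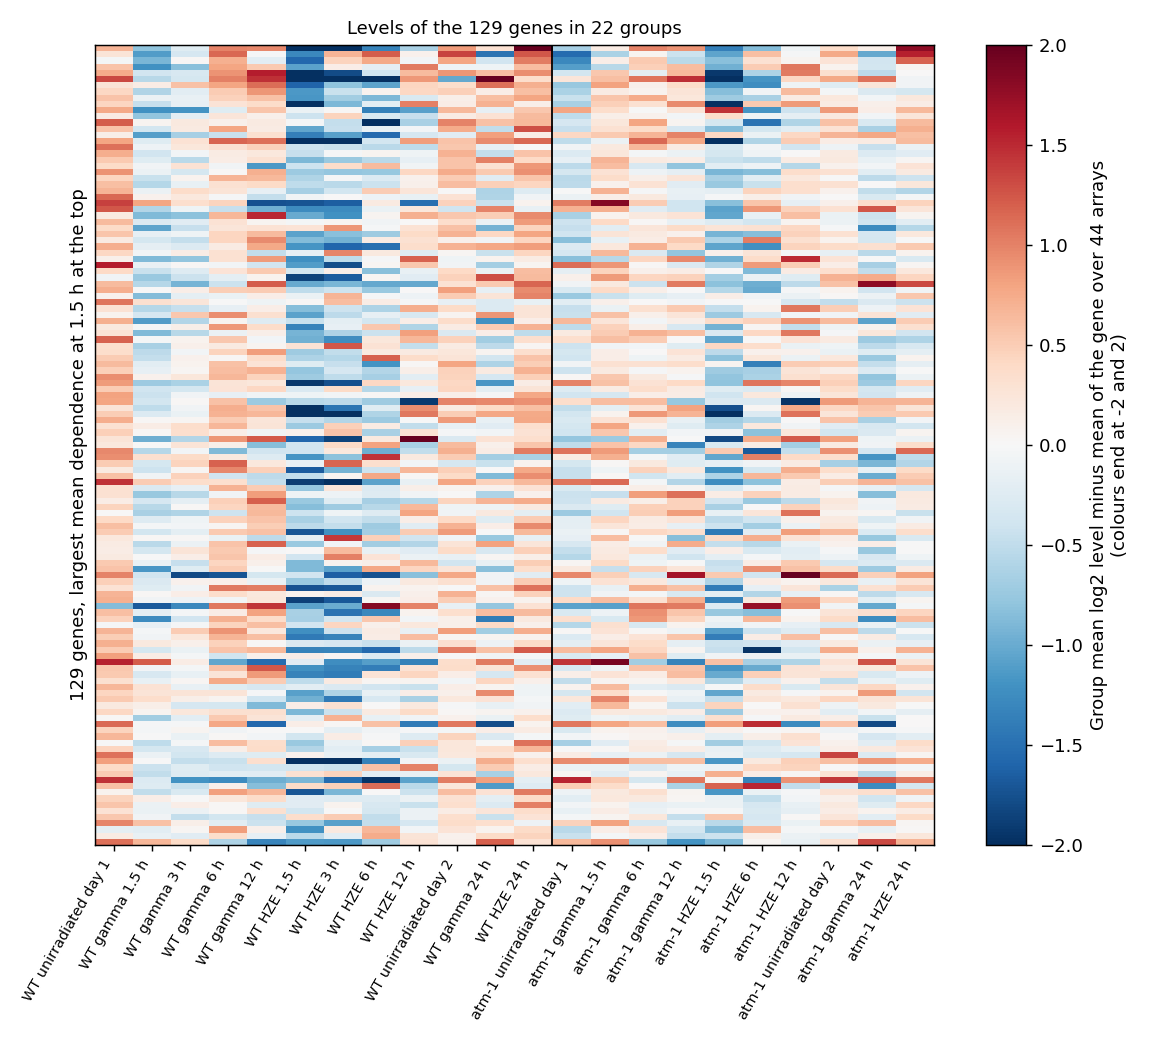
Group mean log2 level minus the gene's mean over the 44 arrays (colour, ending at -2 and 2) for the 129 genes (rows, largest mean dependence at the top) in the 22 groups (columns, WT left of the line, atm-1 right of it). The HZE 1.5 h columns are mostly blue in both genotypes, with medians of -0.72 in WT and -0.48 in atm-1, and the colours of single genes vary in the later columns.

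After 1.5 h the set did not move as one block. In WT the median of the centred group means was -0.08 log2 at 3 h, 0.31 at 6 h, 0.25 at 12 h and 0.05 at 24 h after gamma rays. After HZE it was -0.43 at 3 h, -0.20 at 6 h, 0.00 at 12 h and 0.39 at 24 h. Of the 9 WT groups the choice did not use, the lowest was HZE 3 h for 46 genes, HZE 6 h for 32 and gamma 24 h for 21. Of all genes 19.3%, 15.9% and 15.4% had their lowest level there, so the gamma 24 h count lies near the share of all genes. The group means of a member correlated with the mean profile of the set over the 22 groups with a Pearson's r from -0.28 to 0.92 and a median of 0.59, and 7 members had an r below 0. These groups share controls and the 6 groups of the choice, so the correlations are descriptions only. Outside the set the genes most like its profile were EXPA18 at 0.89, which met the values and was left out by name, BGLU15 at 0.88, AT1G23720 and AT1G28400 at 0.86 and AT2G23540 at 0.85.

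Whether the WT fall lasted was tested at 3 h against the unirradiated WT of day 2, on arrays the choice did not use. After gamma rays 53 of the 129 genes were lower and 1 was higher at an adjusted p under 0.05, where 13.0% of all genes were lower and 11.9% higher. After HZE 76 were lower and 10 higher, against 18.3% and 19.5% of all genes. The median change of the members was -0.38 log2 after gamma rays and -0.71 after HZE, and that of all genes -0.04 and 0.01. Both comparisons use the same control arrays, which were a day older and taken at another clock time. Without the second WT array of day 2 the gamma count was 33.

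The deepest fall 3 h after gamma rays was that of 3xHMG-box2 (AT4G23800), a protein with HMG boxes that sits on condensed chromosomes in mitosis. Its level was 7.67 and 7.16 in WT of day 2 and 4.89 and 4.76 at 3 h, a change of -2.59 log2 (SE 0.21, adjusted p = 4.44e-11). After HZE it was 4.94 and 5.07, a change of -2.41 (SE 0.21, adjusted p = 5.54e-11). AT3G02640 was 8.36 and 8.05 on day 2, 5.93 and 6.04 after gamma rays and 5.57 and 5.72 after HZE, with changes of -2.22 (adjusted p = 5.02e-12) and -2.56 (adjusted p = 4.66e-14). For both genes all 4 irradiated arrays lay more than 2 log2 below the nearer control array. AT3G18560 fell by 1.83 after gamma rays, from 7.97 on both control arrays to 6.18 and 6.10 (adjusted p = 1.58e-10).

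After HZE the 3 deepest falls at 3 h were those of AT5G37990, AT3G52360 and AT5G38020. AT5G37990 went from 9.35 and 9.19 to 6.10 and 5.81, a change of -3.32 log2 (SE 0.25, adjusted p = 2e-12). AT3G52360 went from 8.18 and 8.48 to 5.00 and 5.38, a change of -3.14 (SE 0.19, adjusted p = 2.68e-14). AT5G38020 went from 10.01 and 9.97 to 7.08 and 6.68, a change of -3.11 (SE 0.20, adjusted p = 5.4e-14). After gamma rays the same genes stood at 9.68 and 8.31, at 8.28 and 7.52, and at 9.60 and 9.14. There only AT5G38020 passed the test, with a fall by 0.62 (adjusted p = 0.019), and HZE minus gamma ran from -3.04 to -2.49 log2 over the 3 genes (adjusted p from 4.25e-13 to 7.63e-12). AT5G37990 and AT5G38020 lie near each other on chromosome 5, and signal shared between like copies cannot be separated with these probe sets.

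Some members had turned upward by 3 h. AT5G48430 rose by 0.79 log2 after gamma rays (adjusted p = 0.0253) and by 1.50 after HZE (adjusted p = 2.28e-05), from 7.55 and 8.13 to 8.24 and 9.02 and to 9.20 and 9.47. Against day 1 controls its gamma value was -0.05, so that rise was not seen with them. It was not called either without the second gamma array, at 0.40, without the first control, at 0.50, or with the trended robust variance model. AT5G43520 rose after HZE by 1.48, from 4.70 and 5.09 to 6.31 and 6.43, and AT1G51890 by 1.16, from 5.80 and 6.20 to 7.10 and 7.22.

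A role could be given to 31 of the 129 genes from their names or from a list, in groups written after the members' names were seen. The other 98 have no name in the tables used here, and of these 40 were lower at 3 h after gamma rays and 57 after HZE. Of all 129 members 53 and 76 were lower, and of all genes 13.0% and 18.3%. The role groups are small, and none was tested as a group. Among the 5 cell wall genes, 2 were lower after gamma rays and 4 after HZE. Peroxidase 25 (AT2G41480) changed by -0.89 log2 after gamma rays and by -2.12 after HZE, from 7.19 and 6.97 to 5.92 and 6.45 and to 5.12 and 4.80. HRGP1, a hydroxyproline-rich wall protein, changed by -0.77 and -1.52. The cellulase GH9C1 and sks15, a relative of the wall protein SKU5, had HZE changes of -0.71 and -1.33, and their gamma values of -0.28 and -0.13 did not pass the test. The fifth, sks16, was at 0.37 and -0.36 and passed neither test.

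Of the 4 defence proteins, OSM34 passed the test as lower after gamma rays and CHI, ChiC and the lectin EULS3 after HZE. The 2 radiations differed for all 4 in HZE minus gamma at 3 h, with 0.86 log2 for OSM34 and -0.64, -1.62 and -0.59 for CHI, ChiC and EULS3 (the highest adjusted p was 0.0449, of CHI). Of all genes 42.1% were called in that difference. The chitinase ChiC went from 6.99 and 7.25 on day 2 to 5.44 and 5.43 after HZE, a change of -1.69 log2 (SE 0.18, adjusted p = 3.37e-09), and stood at 7.04 and 7.07 after gamma rays. CHI, a chitinase-like protein, fell by 1.21 after HZE and EULS3 by 0.83. OSM34 fell by 0.69 after gamma rays (adjusted p = 0.00689), and its HZE value was 0.17.

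Among 6 genes of redox balance and detoxification, the glutathione transferases GSTU26 and GSTU28 fell by 1.04 and 0.57 log2 after gamma rays. After HZE the methionine sulfoxide reductase MSRB9 fell by 1.26 and GSTU28 by 0.56, while the flavin monooxygenase FMO rose by 0.46. F6'H1 (AT3G13610) fell after both radiations, from 10.55 and 10.74 to 9.64 and 9.83 after gamma rays and to 9.14 and 9.09 after HZE, changes of -0.91 and -1.53 with no overlap between the groups. Of all genes 33.2% and 31.3% had both arrays below both controls at 3 h after gamma rays and HZE. BCAT4 fell by 1.93 after HZE (SE 0.67, adjusted p = 0.0221), with control arrays at 7.51 and 6.05.

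A list of 15 nitrate response genes had 3 measured genes, 2 of them members. AT3G25790 fell after both radiations at 3 h, by 1.11 log2 after gamma rays and 1.31 after HZE, from 5.12 and 5.08 to 3.99 on both gamma arrays and to 3.79 and 3.78. The third measured gene, AT1G25550, is no member and fell by 0.47 after gamma rays (adjusted p = 0.0171), with an HZE value of -0.22. AT1G68670, the other member, had a gamma value of -0.31 (adjusted p = 0.0708) and rose by 0.33 after HZE (adjusted p = 0.04). The transporter NPF3.1 (AT1G68570) fell by 0.87 after HZE, with a gamma value of 0.31. The homeodomain factor HAT2 fell by 0.68 after gamma rays and had a value of 0.24 after HZE, and LSH9, of a family of nuclear proteins, fell by 0.54 and 0.44.

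The list of mitosis genes had 4 measured of 19, of which 3xHMG-box2 was the only member. The others, the Aurora kinases AUR1, AUR2 and AUR3, which phosphorylate histones and other mitotic proteins, changed at 3 h by -1.27, -1.29 and -0.66 log2 after gamma rays, and all 3 passed the test. After HZE AUR1 and AUR2 fell by 1.57 and 1.29, and AUR3 was at 0.26. None of the 16 measured CC-type glutaredoxins of 20 listed was a member, nor any of 6 auxin and 2 cytokinin genes measured. Membership alone says nothing of iron and root hair genes, since the rule omits names of both kinds. None of the 3 iron genes measured was among the 6 genes that met the values and were left out by name. The 2 root hair genes measured, EXPA7 and EXPA18, met the values.

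**Figure D3:**
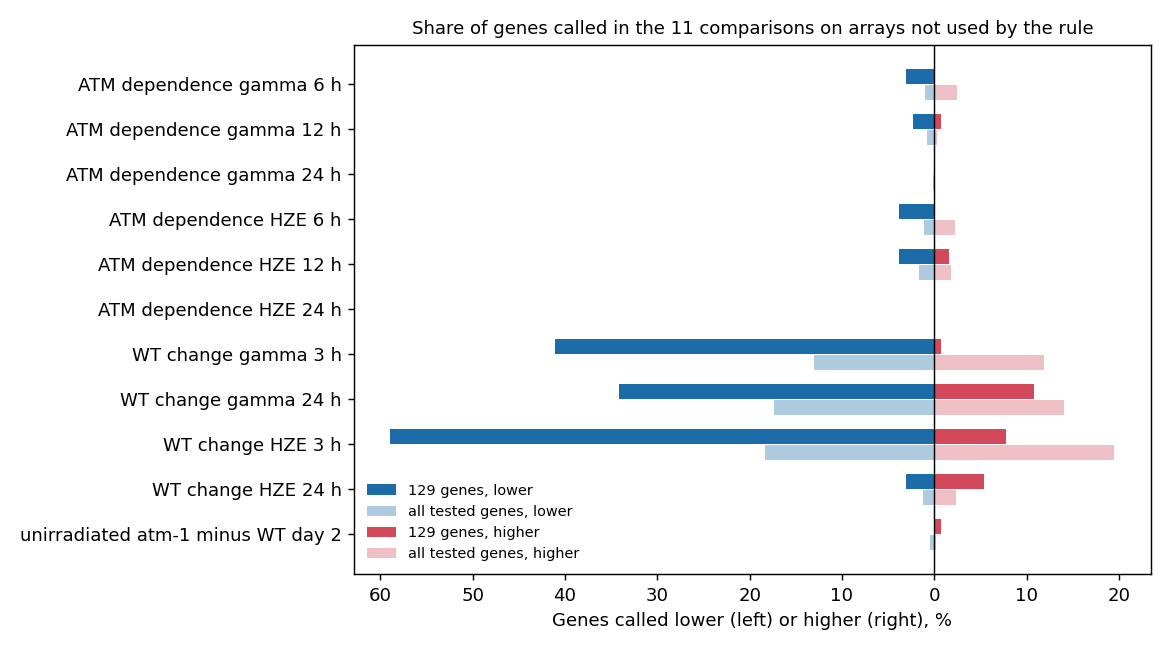
Share of genes called lower (blue, left) or higher (red, right) at an adjusted p under 0.05 in each tested comparison, dark for the 129 genes and pale for all 13355 genes. The dark bars reach furthest at 3 h after HZE, with 76 of 129 genes lower, and the bars for dependence on ATM at 6 to 24 h hold at most 5 lower genes each.

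Whether the genotypes still differed later was tested as the dependence at 6, 12 and 24 h with day 2 controls. At 6 h after gamma rays 4 members were lower and 0 higher, where 1.03% and 2.51% of all genes were. At 6 h after HZE 5 were lower and 0 higher, against 1.16% and 2.19%. At 12 h 3 were lower and 1 higher after gamma rays, against 0.839% and 0.307%, and 5 and 2 after HZE, against 1.61% and 1.86%. At 24 h limma called 0 members in either direction after gamma rays (0.0899% and 0.112% of all genes) and after HZE (0.0599% and 0.0674%). At an unadjusted p under 0.05 the 24 h counts were 5 lower and 11 higher after gamma rays and 3 lower and 14 higher after HZE. In either direction that is 16 and 17 of the 129 members, where 9.04% and 7.53% of all genes passed. The counts moved with the controls: with no controls 14 and 17 members were lower at 6 h after gamma rays and HZE and 9 at 12 h after HZE. With day 1 controls, which the choice used, the lower members numbered 30, 15 and 8 at 6, 12 and 24 h after gamma rays, and 45, 40 and 3 after HZE. The shares of all genes with day 1 or no controls are not given here, so these counts cannot be set against them. With single arrays left out the 6 h counts were 0 to 5 after gamma rays, 0 without the first WT 6 h array, and 1 to 5 after HZE, 1 without the second atm-1 6 h array.

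A dependence that passed the test in any of the 6 comparisons was seen in 15 members, in either direction, and in 7.88% of all genes. The median dependence of the members was -0.03 log2 at 6 h, 0.07 at 12 h and 0.07 at 24 h after gamma rays. There 68, 55 and 56 of 129 genes were below 0, where 44.1%, 41.6% and 50.3% of all genes were. After HZE the median was -0.24 at 6 h, -0.27 at 12 h and 0.19 at 24 h. There 103, 95 and 38 of 129 genes were below 0, against 54.7%, 45.1% and 49.5% of all genes. The medians of all genes in these comparisons lay between -0.02 and 0.04. The standard error of a member's dependence was 0.28 at the median, so a value of -0.24 for one gene could not be detected with 2 arrays a group.

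**Figure D4:**
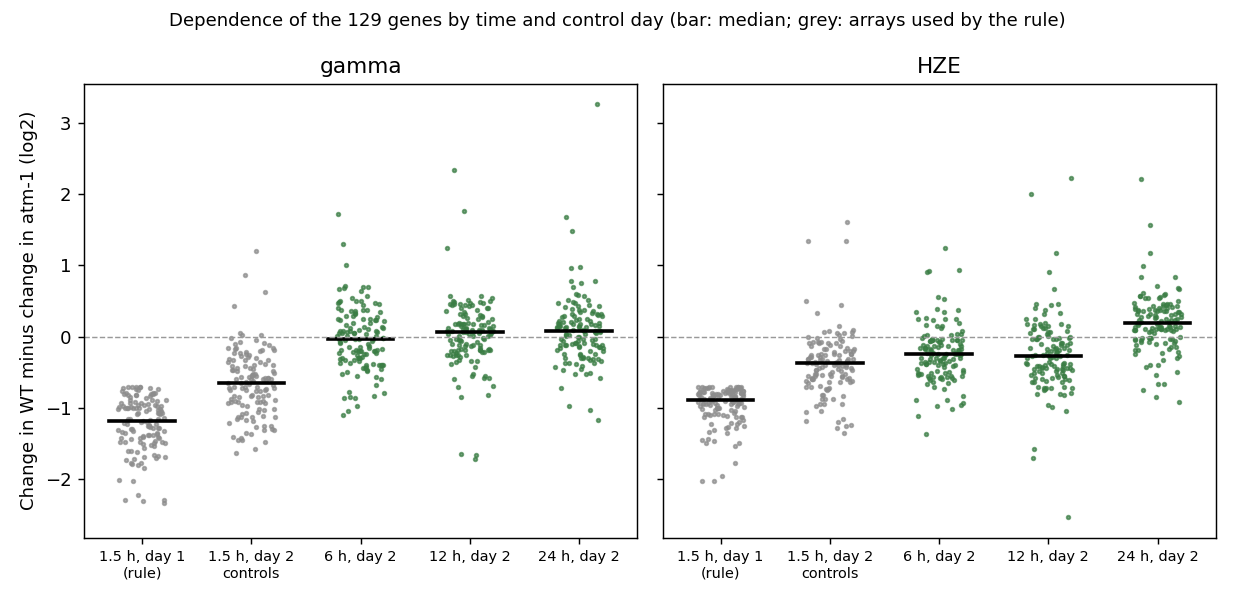
Change in WT minus change in atm-1 (vertical axis, log2) for each of the 129 genes (points) by time and control day (horizontal axis), for gamma rays on the left and HZE on the right, with bars at the medians and grey for arrays used in the choice. The medians go from -1.19 and -0.89 with day 1 controls at 1.5 h to -0.65 and -0.37 with day 2 controls, and lie between -0.27 and 0.19 from 6 h on.

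At 12 h 3 members were lower after each radiation, 3xHMG-box2, AT3G02640 and AT3G06070. The level of 3xHMG-box2 at 12 h after gamma rays was 5.95 and 6.63 in WT and 8.31 and 8.30 in atm-1, and after HZE 5.87 and 5.72 in WT and 8.76 and 8.60 in atm-1. The atm-1 arrays lay above the unirradiated atm-1 arrays of day 2, at 7.88 and 7.66, and the WT arrays below those of WT. Its dependence was -1.66 log2 after gamma rays (SE 0.30, adjusted p = 0.0015) and -2.53 after HZE (SE 0.30, adjusted p = 1.71e-06).

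AT3G02640 at 12 h was 6.14 and 6.26 in WT and 8.19 and 8.28 in atm-1 after gamma rays, and 6.14 and 6.08 in WT and 8.32 and 7.84 in atm-1 after HZE. Unirradiated atm-1 of day 2 was at 8.76 and 8.43, so atm-1 stood near its control and WT about 2 log2 below. The dependence was -1.64 (SE 0.23, adjusted p = 6.09e-05) after gamma rays and -1.58 (adjusted p = 4.74e-05) after HZE. AT3G06070 was 5.89 and 5.87 in WT and 7.11 and 7.35 in atm-1 after gamma rays, and 6.52 and 5.72 in WT and 7.41 and 7.50 in atm-1 after HZE, with dependence values of -1.72 (SE 0.33, adjusted p = 0.00348) and -1.70 (adjusted p = 0.0018). The 6 calls of these 3 genes at 12 h held in every alternative and with each array left out in turn. The gamma and HZE values share the day 2 control arrays, and with no controls each WT array lay below each atm-1 array for all 3 genes.

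At 6 h AT3G02640 was 5.97 and 5.88 in WT and 6.71 and 6.95 in atm-1 after gamma rays, and 5.39 and 5.05 against 5.89 and 5.80 after HZE. 3xHMG-box2 was 4.82 and 5.01 in WT and 6.19 and 6.45 in atm-1 after gamma rays, and 4.63 and 5.15 against 6.24 and 6.28 after HZE. Both genes were thus below the day 2 controls in both genotypes at 6 h, and from 6 h to 12 h the atm-1 arrays went up by more than those of WT. The 6 h dependence of AT3G02640 passed neither test, at -0.52 log2 after gamma rays (adjusted p = 0.239) and -0.24 after HZE (adjusted p = 0.812). That of 3xHMG-box2 after HZE did not pass either, at -1.01 (adjusted p = 0.0536). The gamma 6 h dependence of 3xHMG-box2 was -1.04 (adjusted p = 0.0412), and with each of the 8 arrays behind it left out in turn the call was lost in 6 cases, at -1.17 to -0.79. It was kept without the second WT or the first atm-1 array of day 2. At 12 h AUR1 and AUR2 also passed the test, with -1.13 and -1.08 after gamma rays and -1.33 and -1.21 after HZE, and AUR3 after HZE with -1.01.

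**Figure D5:**
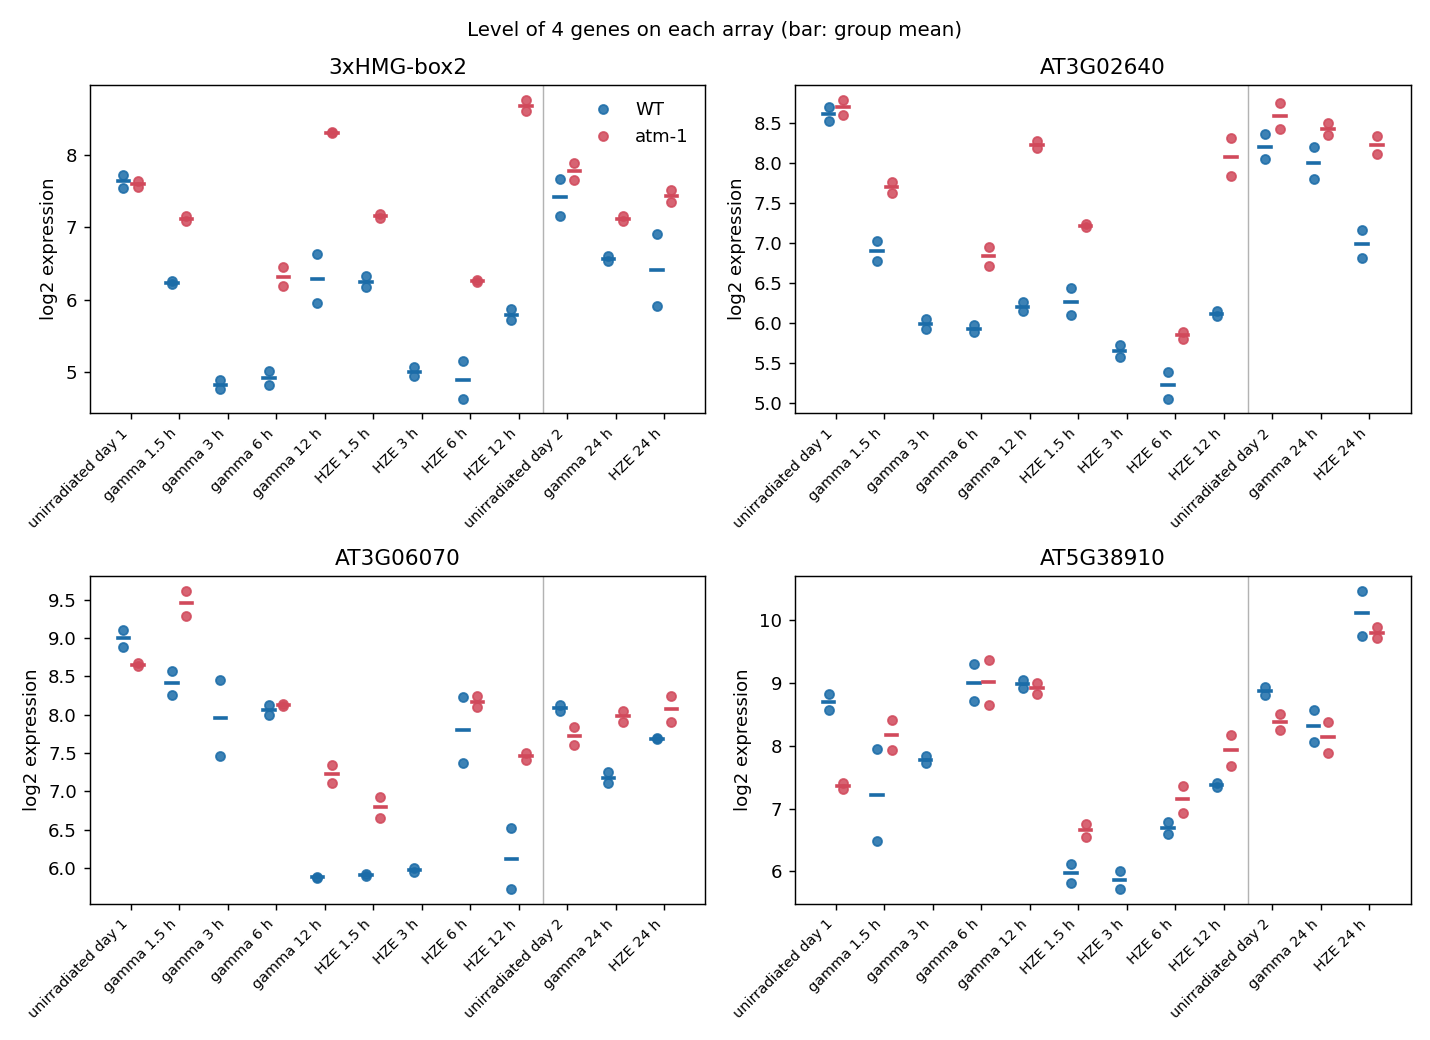
Log2 expression on each array (points; bars are group means) of 3xHMG-box2, AT3G02640, AT3G06070 and AT5G38910 by group (horizontal axis), WT in blue and atm-1 in red, with groups sampled on day 2 or at 24 h right of the line. For 3xHMG-box2 the 12 h arrays of atm-1 lie between 8.30 and 8.76 and those of WT between 5.72 and 6.63, while for AT5G38910 the genotypes lie close together from 6 h on.

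At 6 h after gamma rays AT4G29270 had a dependence of -0.87 log2 (adjusted p = 0.00653), at 7.36 and 7.59 in WT and 7.98 and 8.06 in atm-1. AT2G16005 had -1.10 (adjusted p = 0.0376), at 9.53 on both WT arrays and 10.14 and 10.29 in atm-1. AT1G70880 had -0.85 (adjusted p = 0.0313) because atm-1 was higher, at 6.44 and 6.25 against 5.56 and 5.59 on day 2, while WT at 5.39 and 5.46 stood at its control level. With single arrays left out the call of AT2G16005 was lost in 6 of 8 cases, at -1.18 to -0.95, and kept without the second atm-1 array of 6 h or of day 2. The call of AT2G16005 was also lost with the trended robust variance model. That of AT4G29270 was lost without the first WT 6 h array, at -0.75.

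At 6 h after HZE AT5G62280 had a dependence of -1.37 log2 (SE 0.33, adjusted p = 0.0121), at 6.24 and 6.84 in WT and 7.37 and 7.47 in atm-1, against day 2 controls of 7.08 and 6.93 and of 6.31 and 6.73. The low values of AT5G04120, 4.32 and 3.80 in WT and 4.56 and 4.52 in atm-1, gave -1.11 (adjusted p = 0.0361). HAT2 was above its day 2 controls in both genotypes, at 9.31 and 9.59 in WT and 9.95 and 9.76 in atm-1, and had -0.89 (adjusted p = 0.0401). AT1G27030 had -0.89 (adjusted p = 0.0016), with WT at 8.05 and 7.71 near its controls and atm-1 at 8.86 and 8.62 above its own. Its dependence was lower after HZE than after gamma rays by 1.14 at 6 h (HZE minus gamma, adjusted p = 0.000103), and it was the 1 member lower in that difference, where 1.98% of all genes were lower and 1.56% higher. AT3G18280 had -0.83 (adjusted p = 0.0251), with WT at 6.49 and 6.34 and atm-1 at 7.88 and 8.05. With single arrays left out the calls of AT5G62280, AT5G04120 and HAT2 were lost in 4, 5 and 6 of 8 cases, at -1.32 to -1.07, at -1.13 to -0.80 and at -0.99 to -0.75. The call of AT5G62280 was also lost with day 1 controls, at -0.96, that of AT5G04120 with no controls, at -0.48, and that of HAT2 with either, at -0.49 and -0.40. With no controls AT5G62280 was still called, at -0.88. AT3G18280 was also the only member called between the unirradiated genotypes of day 2, where it was higher in atm-1 by 0.71 (adjusted p = 0.0158).

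In that comparison of unirradiated seedlings of day 2, 0 members were lower in atm-1 and 1 was higher, where 0.457% of all genes were lower and 0.210% higher. At an unadjusted p under 0.05 limma gave 22 lower and 7 higher members, together 29 of 129, where 7.99% of all genes passed in either direction. The median difference was -0.14 log2. The call of AT3G18280 was lost without the second WT array or either atm-1 array, at 0.53 to 0.72.

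At 12 h after HZE AT1G48070 and AT1G73620 were lower, with -0.99 (adjusted p = 0.0478) and -0.80 (adjusted p = 0.0463), and CPUORF47, a short conserved reading frame upstream of a main one, was higher with 0.91 (adjusted p = 0.0478). With single arrays left out only 3 to 4 members were lower there, so the calls of AT1G48070 and AT1G73620 were never kept together. AT4G17470 was higher after both radiations at 12 h, by 2.33 log2 after gamma rays (SE 0.55, adjusted p = 0.0248) and by 2.01 after HZE (adjusted p = 0.0346). Its unirradiated atm-1 arrays of day 2 were at 7.69 and 6.00, and without the first of them the values were 1.49 and 1.16 (adjusted p = 0.21 and 0.263). The calls were lost too with no controls and with the trended robust variance model. They were also lost without any 1 of 6 of the other 7 arrays, at 1.93 to 2.47, and with day 1 controls the values were 0.19 and -0.14. The call of CPUORF47 was lost in 6 of 8 such cases, at 0.62 to 0.98. It was also lost with the replicate block, with cyclic loess, with no controls at 0.55 and with day 1 controls at 0.036 (adjusted p from 0.0508 to 0.979).

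The 12 h dependence was also lower after HZE than after gamma rays for 3 members, AT3G18560, AT5G04960 and AT3G13610, with -0.98, -1.13 and -1.0 log2, where 1.05% of all genes were lower and 1.96% higher. At 24 h limma called 0 members in that difference, where 0.0449% of all genes were lower and 0.0899% higher.

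A day after irradiation the WT change differed between the radiations. At 24 h after gamma rays 44 members were lower and 14 higher than WT of day 2, where 17.4% and 14.1% of all genes were. At 24 h after HZE 4 were lower and 7 higher, against 1.21% and 2.39%. That lower count was 27 with day 1 controls and 1 to 3 with each of the 4 arrays left out, 1 without the second HZE array. The share of all genes with day 1 controls is not given here. In HZE minus gamma at 24 h, 12 members were lower and 54 higher, against 14.2% and 17.5% of all genes, with a median of 0.45 log2 for the members and -0.00 for all genes. At 3 h the same difference was lower for 51 members and higher for 22, against 20.0% and 22.1%, with a median of -0.28. Gamma and HZE seedlings were taken more than 4 h apart in clock time at both times. Without the second WT array of day 2 the gamma 24 h count of lower members was 28.

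AT5G62280 was lowest 24 h after gamma rays, going from 7.08 and 6.93 to 4.46 and 3.88, a change of -2.84 log2 (SE 0.23, adjusted p = 3.56e-11). Its HZE arrays at 24 h were 6.06 and 5.97, between these pairs. AT3G55790 went from 7.13 and 7.73 to 4.48 and 4.75 after gamma rays, a change of -2.82 (adjusted p = 3.43e-07), and stood at 7.57 and 7.06 after HZE. AT5G44680 went from 9.83 and 9.82 to 8.19 and 8.29, a change of -1.58 (adjusted p = 1.61e-07). Each of these gamma groups lay below its controls with no overlap, as did 32.3% of all genes. In atm-1 at 24 h after gamma rays AT5G62280 was at 4.19 and 4.11 and AT3G55790 at 5.19 and 4.93, as low as WT or nearly so.

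The largest rise at 24 h after gamma rays was that of BCAT4, by 3.59 log2 (SE 0.67, adjusted p = 8.14e-05), from 7.51 and 6.05 to 10.66 and 10.08. Its level in WT of day 1 was 9.12 and 9.13, and against those controls the value was 1.25 (adjusted p = 0.213). NPF3.1 (AT1G68570) rose by 1.38 from 5.88 and 5.37 to 6.93 and 7.09, and stood at -0.25 with day 1 controls. AT1G79520 rose by 1.09, from 6.61 and 6.50 to 7.50 and 7.80, and stood at 0.085 with day 1 controls (adjusted p = 0.855). Peroxidase 25 (AT2G41480), low at 3 h, was at 8.04 and 7.78, above its controls by 0.83 (adjusted p = 0.00108).

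At 24 h after HZE AT3G02640, sks15 and 3xHMG-box2 were the lowest of the 4 members that fell, with -1.22, -1.14 and -1.0 log2. AT3G02640 was at 7.17 and 6.82 in WT, against 8.34 and 8.12 in atm-1. AT5G38910, the gene with the largest early dependence, then had its highest group means, at 10.48 and 9.76 in WT and 9.89 and 9.72 in atm-1, a WT change of 1.24 (SE 0.30, adjusted p = 0.0153). ChiC rose by 1.10 (adjusted p = 0.000134) to 8.33 and 8.11, and FMO by 0.88 (adjusted p = 0.000309), which with day 1 controls was -0.035 (adjusted p = 0.91). With single arrays left out sks15 was no longer called without either HZE array or the second control, at -1.16 to -0.64, and 3xHMG-box2 without the second HZE array or the first control, at -0.50 and -0.75. AT5G38910 was no longer called without the first HZE array or either control, at 0.88 to 1.30.

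Over the 4 WT comparisons 100 of the 129 genes were called lower at least at one time and 29 at none, where 34.3% of all genes were called lower at least once. The members were measured at a median log2 level of 6.64, above the 5.46 of all genes, and 47 of them lay in the brightest 25% of genes and 1 in the dimmest 25%. The brightest members were AT5G62350, AILP1 and AT5G64100 at 10.5, 10.4 and 10.2, and the dimmest AT5G46940, JRG21 and AT1G51840 at 3.70, 3.95 and 4.26. These are levels of different probe sets and give no order of the RNAs.

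Some members lie close together on the chromosomes, which the rule did not use. Of the 128 members placed on the chromosomes of assembly TAIR10.1, 19 had another member within 3 protein-coding genes on either side, which is 14.8%, as against 2.65% of the 12203 other genes. They form 9 groups: AT1G26390 with AT1G26410, AT2G39040 with EULS3, AT2G42350 with AT2G42360, CHI with AT2G43590, AT2G44370 with AT2G44380, AT3G54580 with HRGP1, AT5G23830 with AT5G23840, AT5G37990 with AT5G38020 and AT5G38030, and AT5G38900 with AT5G38910. Neighbours of this kind can be copies of one gene, and probe sets of like copies may detect each other's RNA, so these groups may hold fewer independent members than their count.

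Of the tissue markers listed to check the label of whole seedlings, only 2 root genes of 4 have a probe set with a single gene, and none of 3 green tissue and 3 seed genes. The root gene PYK10 was among the brightest on every array, between 11.6 and 13.3 log2. EXPA7, a gene of root hair cells, is one of the 6 genes that met the values and were left out by name, so its course at 1.5 h was fixed by the choice. It was at a group mean of 6.19 in WT and 5.40 in atm-1 on day 1 and of 5.97 and 5.66 on day 2. At 1.5 h it was at 5.36 in WT and 5.70 in atm-1 after gamma rays and at 5.19 and 5.16 after HZE. PYK10 was at 12.5 in both genotypes on day 1. At 1.5 h it was at 12.3 in WT and 12.5 in atm-1 after gamma rays and lower after HZE, at 11.7 in both. The part of root tissue in these results was not tested.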

How the data were processed

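The values are log2 expression per probe set on 44 single-colour Affymetrix arrays, used as the authors deposited them. The submitters' processing notes name GCOS 1.2, RMA and affy; which arrays RMA treated together is not given in the sources used here. Of 22810 probe sets, 64 controls were left out, and of the rest 13513 have 1 gene in the platform annotation supplied, 503 several and 8730 none. The probe set with the highest mean stood for a gene with several (147 genes), which left 13355 genes, and names come from the gene table of TAIR10.1. The median of an array lay between 5.73 and 5.98, and the correlation of replicates across genes between 0.989 and 0.997. No pair of arrays was identical. Precision is limited by 2 arrays a group.

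One group-means model was fitted over all 44 arrays with limma 3.58.1 in R 4.3.3 (residual df 22, prior df 7.82). Benjamini-Hochberg adjustment ran over the 13355 genes of each comparison, and calls were made at 0.05. On simulated data 87 of 100 genes changed 2-fold were recovered for the HZE 12 h dependence and 97 of 100 for the WT change at 3 h after gamma rays, over 13355 genes. Of 100 genes changed 1.5-fold, 27 and 68 were recovered, and each of these comparisons gave 9 false calls. In the simulation the noise was independent and only the genes counted here were changed. In the data 13.0% of all genes were lower and 11.9% higher at 3 h after gamma rays, so recovery and false calls there may differ. The members, lists and tests were chosen with earlier results of these data known.

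The genes named are the 12 members with the largest mean dependence at 1.5 h, up to 3 lowest and 3 highest called members of each comparison, members on a list with up to 4 others of that list, the 3 genes on either side of the limit, the 5 genes most like the set, and the 3 brightest and 3 dimmest members. Other members are named where a count of 5 or fewer, a role or the control day asked for it, after their values were seen. Alternatives were cyclic loess, other controls, another limit, another probe set, a filter on dim genes, another variance model, a replicate block and each array left out. ATM could not be tested.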

Additional observations from a re-analysis of the deposited data

Results flagged for a closer look

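The WT change differed between HZE and gamma rays for 17 of the named member results, by the direct comparison of the irradiated groups in limma, and the clock times of the 2 radiations differed by more than 4 h, so radiation and time of day cannot be told apart in any of them. These genes were named for extreme values, and the same comparison called 42.1% of all genes at 3 h and 31.7% at 24 h.

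At 3 h HZE minus gamma was -3.04 log2 for AT5G37990, -2.71 for AT3G52360 and -2.49 for AT5G38020, which were deeper after HZE. It was 1.21 for AT3G18560, which was deeper after gamma rays, and 1.40 for AT5G43520, 0.88 for AT1G51890 and 0.71 for AT5G48430, which were higher after HZE.

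At 24 h the difference was 2.71 log2 for AT3G55790, 1.85 for AT5G62280 and 1.31 for AT5G44680, whose falls after gamma rays were the deepest of the set. It was -2.22 for BCAT4, -1.13 for AT1G68570 and -0.90 for AT1G79520, which rose after gamma rays, and -1.01 for AT3G02640, which was lower after HZE. It was 1.80 for AT5G38910, 0.51 for ChiC and 0.65 for FMO, which rose after HZE against the day 2 controls (FMO was at -0.035 with day 1 controls). The adjusted p of the 17 differences ran up to 0.0303, for AT5G48430 at 3 h.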

How the results depend on the processing

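The number of genes that meet the rule, 129, was 73 with day 2 controls (20 shared), 49 with the controls of both days (45 shared), 34 with a limit of 1 log2 and 24 with no controls in the dependence (14 shared), and from 108 to 171 with each array left out. It was 126 after cyclic loess and 129 with another probe set per gene. The controls of both days and the rule without controls were chosen after seeing the data. With day 1 controls, which the choice used, the lower members were 30, 15 and 8 for the gamma dependence at 6, 12 and 24 h, 45, 40 and 3 for the HZE dependence, and 27 for the WT change 24 h after HZE. With no controls the gamma dependence gave 14 at 6 h and 2 at 24 h, and the HZE dependence 17, 9 and 2. The shares of all genes with day 1 or no controls are not given here. With each array left out the counts were 0 to 5, 3 to 3 and 0 to 1 for the gamma dependence, 1 to 5, 3 to 4 and 0 to 0 for HZE, 33 to 45 and 28 to 40 for the WT change 3 and 24 h after gamma rays, 65 to 71 and 1 to 3 after HZE, and 0 to 3 between unirradiated genotypes. Values that turned with day 1 controls were -0.14 for AT4G17470 (HZE 12 h), -0.051 for AT5G48430 (gamma 3 h), -0.25 for AT1G68570 (gamma 24 h) and -0.035 for FMO (HZE 24 h). The cause was not tested. Of 416 values of named genes under the alternatives, 334 kept direction and call, 78 lost the call and these 4 turned. In the 11 tested comparisons, cyclic loess, the filter on dim genes (10016 genes left), the trended robust variance and the replicate block kept the count within 1.5 times. Replicate numbers did not pair the samples: deviations of same-numbered arrays correlated at a median of 0.01 over 231 pairs of groups, 40 of them over 0.1. With the replicate block, lower members were 52 and 77 at 3 h after gamma rays and HZE, and 7 for the HZE 12 h dependence.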
